A study of Arabidopsis thaliana with 12 samples.

Results

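Rosettes of the Arabidopsis thaliana double mutant pmr5 pmr6 were compared with rosettes of the pmr5 single mutant, a comparison that gives the effect of losing PMR6 where PMR5 is already lost. The members were chosen by the genotype in the sample labels: 3 pmr5 pmr6 arrays and 3 pmr5 arrays, which are 6 of the 12 arrays of the series. The other 6 arrays, 3 of the pmr6 single mutant and 3 of the wild-type accession Col-0, gave the levels against which the change was read. All plants were 3 weeks old and were collected without treatment, so no group had been exposed to a pathogen. The labels call the 3 replicates of each genotype biological. How many plants went into an array is unstated, as are the alleles and any backcrossing. The p-values therefore cover only the variation among these samples, and how many plants it spans is unknown. The assay was the Affymetrix ATH1 array, where a transcript is read by a probe set made of several short DNA probes.

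PMR5 and PMR6 are named for powdery mildew resistance, the trait by which both mutants were found. PMR6 encodes a pectate lyase-like protein, of the family of enzymes that cleave the homogalacturonan of pectin, and PMR5 belongs to a plant protein family whose members acetylate wall polysaccharides. Mutants of either gene are known for an altered pectin content of the leaf wall and for resistance that does not need the salicylic acid or jasmonate pathways.

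The deposited row identifiers could not be used to name genes. The annotation gives 146 pairs of rows a gene in common, and the mean log2 levels of such pairs had a correlation of r = 0.05. With the control identifiers moved to the front of the table, which was the order proposed for testing, r was 0.16, below the 0.5 that was required. Of the 601 offsets between identifiers and values that were examined, these 2 included, none reached more than 0.38. The table's first 9 rows carry identifiers of plant genes and had a mean correlation of 0.94 with each other, while the 9 rows with spike-in identifiers correlated at -0.02. Probe sets are therefore described by their values, by their rank of change and by their place in the deposited table, and the transcripts of PMR5 and PMR6 were not analysed here. The pathway lists and cell type markers were not used here either, so the rosette label and the makeup of the tissue could not be checked on markers.

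For each of the 6 arrays the mean Spearman correlation with all other arrays of the series was between 0.947 and 0.965. Median intensities were between 177.4 and 190 on the pmr5 pmr6 arrays, against 176.4 to 188.2 on the pmr5 arrays. By their recorded hybridization times the arrays fell into 3 runs of 4 arrays, with every genotype once per run. Replicate numbers matched these runs. In every run pmr5 pmr6 was on fluidics module 4, against module 2 for pmr5, so module and genotype cannot be told apart. The same holds for pmr6, always on module 3, and Col-0, always on module 1. A stopped staining step is on record for replicate 2 of pmr5 pmr6. The arrays pmr5 pmr6 replicate 3 and pmr5 replicate 1 stood apart among dim probe sets: their 5th percentiles of intensity were 9.2 and 9.6, while the remaining 4 arrays had 3.5 to 3.9.

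Losing PMR6 in addition to PMR5 changed the level of 546 of 17059 probe sets, which is 3.2% of those tested (limma, Benjamini-Hochberg adjusted p under 0.05 on the log2(intensity + 28) scale). Of these, 317 were higher in pmr5 pmr6 (1.86%) and 229 were lower (1.34%). The increases were the larger changes: their median was 1.61-fold, against 1.37-fold for the decreases. At least 2-fold changes were found for 69 of the increases and 7 of the decreases, and 2 increases and no decrease passed 4-fold. At the other end, 113 increases and 185 decreases were under 1.5-fold, and the smallest change called was 0.26 on the log2 scale. In every one of the 546, all 3 within-run differences, pmr5 pmr6 minus pmr5, had the direction of the change. The same arrays chose the 546, so this agreement is not separate support for the calls. The 3 pmr5 pmr6 arrays lay wholly on one side of the 3 pmr5 arrays in 538 of the 546, a condition that 18.7% of all tested probe sets met. A fit that included the run as a block called 612, of which 355 rose, 257 fell and 534 were among the 546. The count rested on single arrays to some extent: leaving out pmr5 pmr6 replicate 1 gave 263, leaving out its replicate 2 gave 341, and leaving out pmr5 replicate 3 gave 270.

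The split between increases and decreases varied with brightness, taken as the mean over all arrays of the series. The pmr5 pmr6 and pmr5 arrays enter that mean and the dim filter, so the brightness groups are not independent of the change. A probe set that was dim in the other genotypes could pass the filter through its pmr5 pmr6 level. How far this shaped the split among dim probe sets was not tested. In the dimmest 25% of the tested probe sets, with mean intensities from 34.8 to 124, 22 were called higher and 5 lower. In the next 25%, up to an intensity of 316.8, the counts were 58 higher and 4 lower. In the brightest 25%, from 788.8 upward, they were 140 higher and 146 lower. The share called was 0.633% among the dimmest 25% and 6.71% among the brightest, and their median standard errors were 0.34 and 0.09 on the log2 scale. Changes called among dim probe sets were accordingly large, with a median of 1.21 on the log2 scale, against 0.45 among the brightest. A further 53 probe sets differed by at least 2-fold without being called, and 48 of them were in the dimmest 25%. At the brightest end, the 319 probe sets with a mean of at least 13 on the log2 scale had a median change of 0.1, which quantile normalization brought to -0.01, and 6 of them were called.

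**Figure D1:**
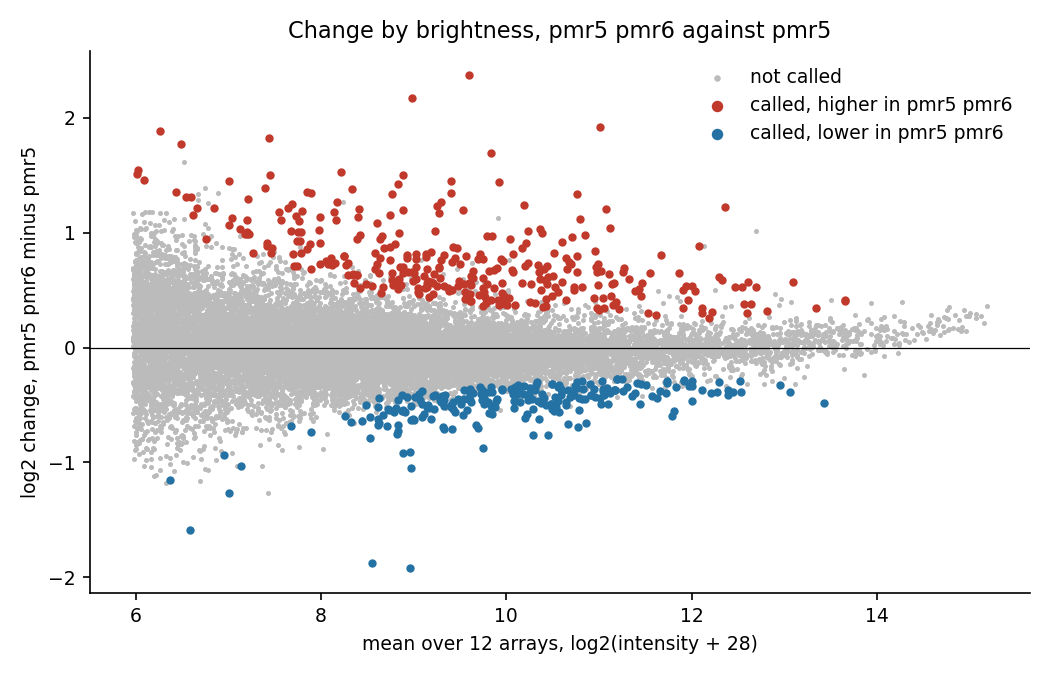
The vertical axis gives the log2 change of each of 17059 probe sets, pmr5 pmr6 minus pmr5, and the horizontal axis its mean log2(intensity + 28) over 12 arrays. The 317 called increases (red) run from dim to bright and reach higher than the 229 called decreases (blue), of which 7 passed 2-fold.

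For the 16513 probe sets that were not called, the intervals set a limit on the change. The median 95% interval reached 0.32 to either side on the log2 scale, a 1.25-fold change. The whole interval lay within a 2-fold change either way for 14394 of the uncalled probe sets (87.2%), and reached past 2-fold for the other 2119.

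The 10 largest increases among called probe sets whose arrays did not overlap are named Up1 to Up10 by rank, and the 10 largest decreases Down1 to Down10. The increases are described below by whether pmr6 was also called higher than Col-0.

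In Up1, Up2, Up3, Up7 and Up9 the level was also higher in pmr6 than in Col-0, and it was highest in the double mutant. Up1, at place 2300 of the deposited table, had intensities of 2802.5, 2174.8 and 2146.8 in pmr5 pmr6, against 324, 518.5 and 483.6 in pmr5. Every double-mutant array was more than 4 times as bright as every pmr5 array. The change was 5.16-fold (log2 2.37, SE 0.23, limma adjusted p = 3.8e-06). In pmr6 the same probe set was at 1016, 1069.3 and 1903.7, against 303, 139.4 and 266.5 in Col-0, a change of 2.36 on the log2 scale. The PMR6 loss thus gave changes of 2.37 and 2.36 in the pmr5 and Col-0 backgrounds, and the interaction, their difference, was 0.01 (SE 0.32).

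Up2, at place 13224, stood at 2372.8, 2108.8 and 1205.5 in pmr5 pmr6, against 388.9, 472.8 and 301.9 in pmr5. The lowest double-mutant array, replicate 3, was still above the highest pmr5 array. The change was 4.51-fold (log2 2.17, SE 0.21, limma adjusted p = 3.8e-06), and the pmr6 single mutant differed from Col-0 by 2.16 on the log2 scale. Mean intensities were 387.9 ± 85.5 in pmr5 and 605.4 ± 126 in pmr6, against 113.1 ± 21.2 in Col-0 (SD, n = 3 each), so each single mutant already stood above the wild type.

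Up3, at place 15088, was the brightest of the 10, with 6319.5, 5540.8 and 4812.8 in pmr5 pmr6, against 1154.7, 1924.5 and 1350.7 in pmr5. The groups were far apart and the change had the smallest standard error of the 10 (3.77-fold, log2 1.92, SE 0.15, limma adjusted p = 4.7e-07). In the Col-0 background the change was 2.01.

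Up7 had 2446.7, 2224.1 and 1821.7 in pmr5 pmr6, against 516.8, 905 and 569.9 in pmr5, and changed by 1.69 on the log2 scale in the pmr5 background, against 1.61 in Col-0. Up9 had 718.1, 639.8 and 493.1 in pmr5 pmr6, against 153.5, 245.4 and 189.5 in pmr5, with changes of 1.53 and 1.05. For these 5 probe sets the interaction was between -0.09 and 0.47 on the log2 scale and was not called, with 95% limits that the standard errors of 0.21 to 0.32 leave wide. The pmr5 level itself was above Col-0 by 0.77 to 1.55 on the log2 scale in Up1, Up2, Up3 and Up7 (limma adjusted p between 5.2e-05 and 0.021) and by 0.43 in Up9 (limma adjusted p = 0.29). Since pmr5 arrays enter both that difference and the change under study, the 2 values are not independent.

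In Up4, Up5, Up6, Up8 and Up10 no change between pmr6 and Col-0 was called. Their interactions, between 1.1 and 1.97 on the log2 scale, were not called either (limma adjusted p between 0.25 and 0.58), so a different change in the 2 backgrounds was not shown for them. Up5 had 629.5, 434.7 and 777 in pmr5 pmr6, against 181.1, 178.8 and 100.7 in pmr5. The 3 double-mutant arrays were the brightest of the 12 for this probe set, and the pmr6 arrays stood at 99.2, 80.3 and 78.4. The change was 3.53-fold (log2 1.82, SE 0.39, limma adjusted p = 0.011). Wild-type arrays were scattered, at 157.1, 5.9 and 34.4.

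Up6 had 186.5, 175.2 and 210.3 in pmr5 pmr6, against 28.2, 30.7 and 51.3 in pmr5. No other array of the series passed 87.8. Up10 had 148.7, 148.7 and 171.3 in pmr5 pmr6, against 35.5, 12.2 and 76.6 in pmr5. In pmr6 and Col-0 it was at most 16.1, near the dim end of the arrays. By mean over the 12 arrays Up10 was at percentile 1 of the tested probe sets. It passed the dim filter narrowly, and through its pmr5 pmr6 arrays. With no dim filter it kept its call (limma adjusted p = 0.018). Up4 had 129.9, 152 and 127.6 in pmr5 pmr6, against 9.2, 27.4 and 14.5 in pmr5, and between 36.2 and 83.1 in pmr6. Adjusted p-values for these 3 were between 0.0064 and 0.029 by limma.

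In Up8 pmr5 was called lower than Col-0 (log2 -1.41, limma adjusted p = 0.027). It had 68.8, 29 and 134.2 in pmr5 pmr6, against 6.6, 3.7 and 4.9 in pmr5, while Col-0 stood at 67.7, 59.3 and 52.5. The double mutant was spread over a wide range on both sides of the wild-type level. By mean over the 12 arrays Up8 was at percentile 1.5 of the tested probe sets, also close to the dim filter. The change was 1.54 on the log2 scale (SE 0.39, limma adjusted p = 0.03). With no detection calls in the table, whether such dim probe sets were above background in pmr5 could not be judged. The size of a change measured from so low a level depends on the added 28. For Up8 it was 2.95 on the log2 scale with 4 added and 0.71 with 100 added. Up5 was no longer called without pmr5 pmr6 replicate 1 or 3 or pmr5 replicate 3. It also lost its call with 4 added in place of 28, with the robust trend and without the variance trend. Up8 lost its call without any of the 6 arrays but pmr5 pmr6 replicate 2, and Up10 without any but pmr5 replicate 3. Up5, Up6, Up8 and Up10 lost their call when both arrays that stood apart were left out.

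Down1, at place 15595, was low in the double mutant only. It stood at 175.4, 80.7 and 260.1 in pmr5 pmr6, against 561.6, 671.2 and 808.9 in pmr5. The pmr6 arrays, at 498.3, 617.5 and 771.2, and the Col-0 arrays, at 670.9, 807.1 and 643.9, all lay in or near the range of pmr5. The change was 3.78-fold downward (log2 -1.92, SE 0.24, limma adjusted p = 5.8e-05), against -0.18 in the Col-0 background, and the interaction of -1.74 was called (SE 0.33, limma adjusted p = 0.039). That interaction kept its call in 10 of 23 other settings. It lost it without pmr5 pmr6 replicate 1, any pmr5 array, pmr6 replicate 2 or 3, or Col-0 replicate 1 or 3.

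Down2, at place 10504, was highest in the pmr5 single mutant. It had 444.4, 313.8 and 324.6 in pmr5 pmr6, against 1199.7, 1491.2 and 1468.7 in pmr5. In pmr6 it had 209.1, 114.7 and 157.6, against 217.6, 156.3 and 139.2 in Col-0. The double mutant thus lay between pmr5 and the 2 other genotypes, without overlap with either side. The decrease was 3.66-fold (log2 -1.87, SE 0.18, limma adjusted p = 3.8e-06), where pmr5 stood above Col-0 by 2.84 and the double mutant still stood above Col-0 by 0.97 (limma adjusted p = 0.00053). The pmr6 change in Col-0 was -0.09, and the interaction of -1.78 was called (SE 0.26, limma adjusted p = 0.0087).

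Among the other decreases, Down6, Down9 and Down10 were of medium brightness with close replicates. Down6 had 321.4, 219.1 and 243.3 in pmr5 pmr6, against 607.1, 544.2 and 546.9 in pmr5 (log2 -1.05, SE 0.12, limma adjusted p = 3.7e-05). Down9 had 284, 282.3 and 230.2 in pmr5 pmr6, against 593.1, 534.7 and 457.2 in pmr5, while pmr6 and Col-0 stayed between 466.6 and 578.3. Its change of -0.92 in the pmr5 background stood beside -0.15 in Col-0, with an interaction that was not called (limma adjusted p = 0.1).

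Down10 fell with each mutation. It had 230.7, 167.4 and 211 in pmr5 pmr6, against 369.2, 456 and 386.4 in pmr5, and 575.5, 540.7 and 581.7 in pmr6, against 907.2, 1123.6 and 1055.7 in Col-0. The 4 genotypes did not overlap. The change was -0.91 in the pmr5 background and -0.83 in Col-0.

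Down3, Down4, Down5, Down7 and Down8 were dim, with pmr5 intensities between 48.5 and 170.2, against 9.7 to 99.3 in pmr5 pmr6. Their changes lay between -1.59 and -0.93 on the log2 scale, with limma adjusted p-values between 0.0045 and 0.049. Down3 kept its call under every limma setting tried. Down4, Down5, Down7 and Down8 lost theirs whenever any pmr5 array was left out. They also did so without pmr5 pmr6 replicate 3 (Down4), 1 or 3 (Down7), 1 (Down8) or any (Down5). With no dim filter none of them was called (limma adjusted p between 0.052 and 0.061). None was called without both arrays that stood apart, and Down4 and Down7 were not called without the variance trend. Down5 was not called with the run as a block either (limma adjusted p = 0.056).

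**Figure D2:**
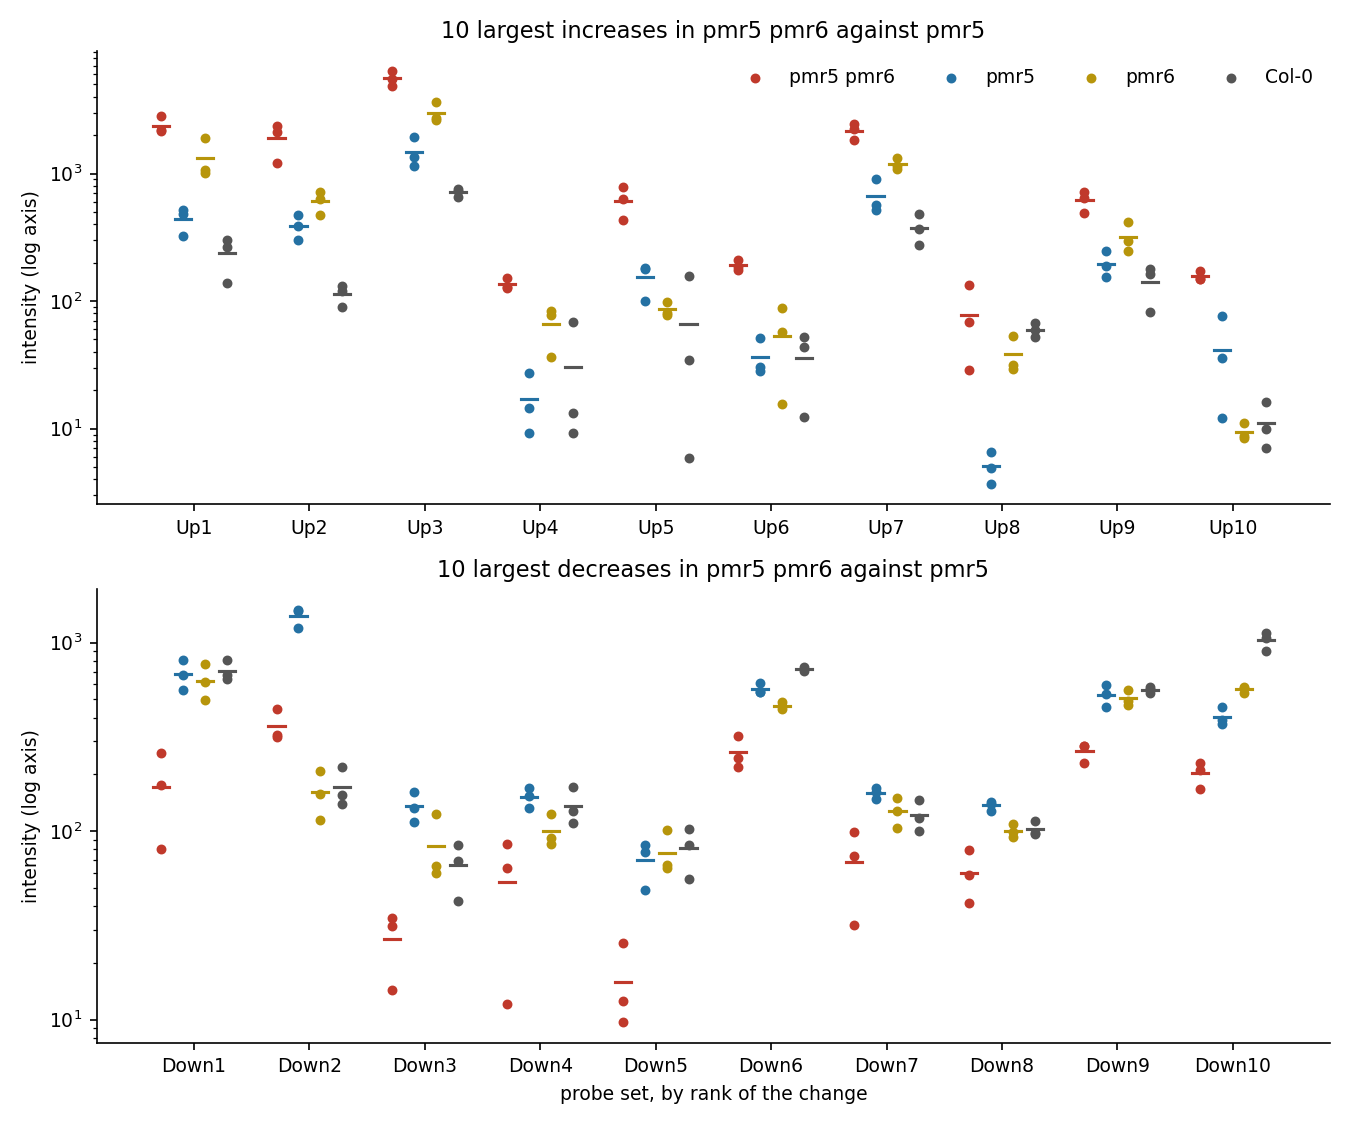
Each point is the intensity on 1 array (log axis), with a bar at the mean of 3 arrays, for the 10 largest increases and the 10 largest decreases in pmr5 pmr6 against pmr5; pmr6 and Col-0 are shown beside them. Up1 stands at 2146.8 or more in pmr5 pmr6 and at 518.5 or less in pmr5, and Down2 is highest in pmr5, with pmr5 pmr6 between it and the other 2 genotypes.

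The size of the change varied between runs. Among the 317 increases the median within-run difference was 0.8 on the log2 scale in run 1, 0.62 in run 2 and 0.65 in run 3, and run 1 gave the largest of the 3 differences for 186 of them. Among the 229 decreases the medians were -0.46, -0.42 and -0.43. Because these values chose the 546, each run was also left out before calling. The run left out still entered the dim filter, so it was not fully independent of the probe sets tested. Without run 1, 187 probe sets were called, and in run 1 the direction was the same for 122 of 125 increases and 50 of 62 decreases. Without run 2 the direction held in run 2 for 134 of 138 increases and 57 of 61 decreases, and without run 3 it held in run 3 for 226 of 234 increases and 94 of 109 decreases. Over all tested probe sets, between 48.1% and 50% were higher in pmr5 pmr6 in the run left out. In the run left out, the increases called without it had medians of 0.86, 0.64 and 0.58 in runs 1, 2 and 3, and the decreases -0.44, -0.34 and -0.3.

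**Figure D3:**
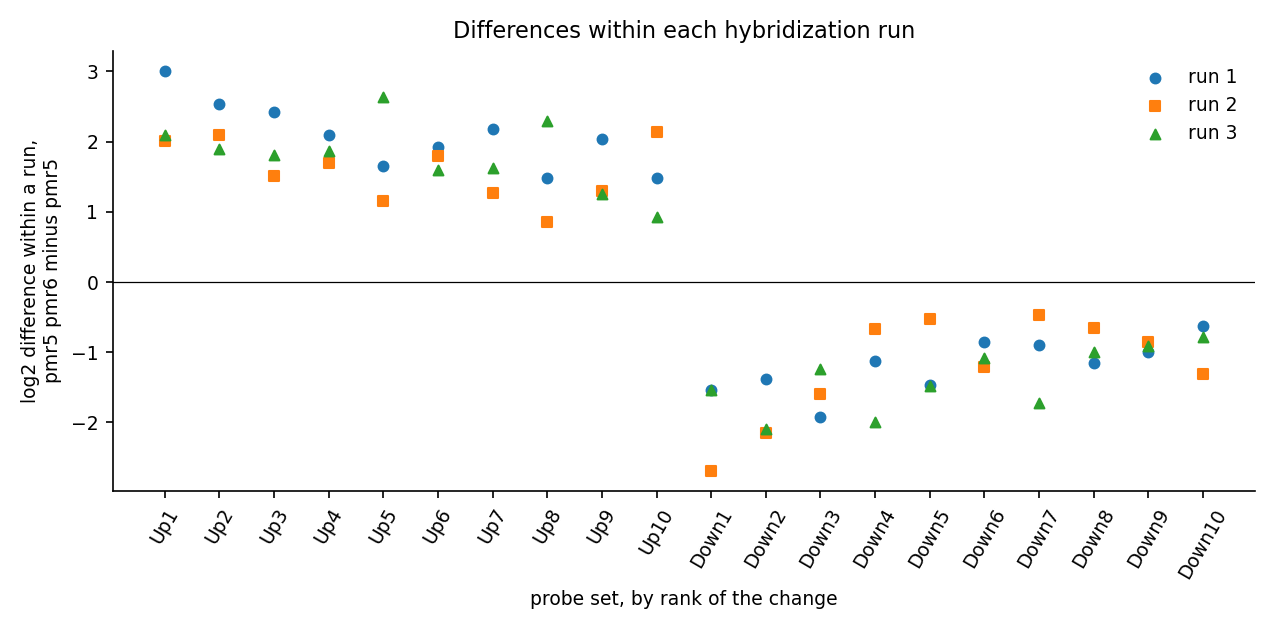
Each point is the log2(intensity + 28) difference, pmr5 pmr6 minus pmr5, between the 2 arrays of 1 hybridization run, for the 10 largest increases and decreases. All 60 differences have the direction of the change, which the choice of non-overlapping probe sets fixed in advance. The difference of Up1 was 3.01 in run 1 against 2.01 and 2.09 in runs 2 and 3.

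The same probe sets were then read in the Col-0 background, with pmr6 and Col-0 arrays that did not enter the log2 change itself. Those arrays did enter the dim filter and the estimate of spread that all genotypes share. Calls in both backgrounds are therefore not independent. Each genotype also kept its own fluidics module in every run, so module and genotype cannot be told apart in either background. Of the 317 increases, 295 (93.1%) were also higher in pmr6 than in Col-0, where 48.5% of all tested probe sets were, and of the 229 decreases 193 (84.3%) were lower, where 51.5% were. The median change of the increases was 0.69 in the pmr5 background, which chose them, and 0.48 in Col-0. That of the decreases was -0.45 and -0.2. In the Col-0 background 158 of the 317 (49.8%) were themselves called higher, and 55 of the 229 (24%) were called lower, against 2.15% and 1.25% of all tested probe sets (3.39% in either direction). None was called in the opposite direction.

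Reading in the other direction avoids choosing on the change under study. The loss of PMR6 in Col-0 raised 366 probe sets, and in the pmr5 background 326 of these (89.1%) were higher, where 48.2% of all tested probe sets were, with a median change of 0.45 on the log2 scale and quartiles of 0.18 and 0.74, against 0.68 in Col-0, which chose them. Called higher in the pmr5 background were 158 (43.2%), against 1.86% of all tested probe sets. The 213 probe sets that fell in Col-0 had a median of -0.23 in the pmr5 background, against -0.48 in Col-0, and 55 of them (25.8%) were called lower, against 1.34% of all tested. Of the 102 that rose at least 2-fold in Col-0, 97 were also higher in the pmr5 background, where their median was 0.83 against 1.32. Of the 10 that fell at least 2-fold in Col-0, 7 were also lower in the pmr5 background and none was called, with a median of -0.16 (quartiles -0.32 and 0.25) against -1.16. The median over all tested probe sets was -0.009. Values that choose a list overstate its change, so the lower medians in the pmr5 background do not by themselves show that the change differed.

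The interaction tests that difference directly. For 20 probe sets (0.117% of 17059) the change with PMR6 loss in the pmr5 background differed from that in Col-0 (limma adjusted p under 0.05), 7 above it (0.041%) and 13 below (0.0762%), and 1474 had an unadjusted p under 0.05. Interactions had a median standard error of 0.22 (log2), so small differences between backgrounds could not be seen. Of the 366 probe sets raised in Col-0, 9 were among the 20, of which 5 were higher in pmr5 pmr6 than in pmr5 by less than in Col-0 and 4 were lower. Of the 213 that fell in Col-0, 4 were among the 20, of which 2 were lower by less and 2 were higher. These 13 were chosen partly on the Col-0 and pmr6 arrays that enter the interaction.

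The interaction with the lowest adjusted p was a probe set at place 9594 of the table. Its intensities were 269, 358.2 and 260.1 in pmr5 pmr6, against 443.5, 409 and 352.2 in pmr5. In pmr6 they were 503.5, 554 and 517.4, against 190.2, 194.2 and 139.9 in Col-0. Each single mutant was thus above Col-0, and adding pmr6 to pmr5 gave no further increase: the change was -0.42 in the pmr5 background (SE 0.15, limma adjusted p = 0.16), against 1.46 in Col-0, and the interaction was -1.87 (SE 0.21, limma adjusted p = 0.00037).

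The probe set at place 18395 had 2426.6, 3753.5 and 3098.3 in pmr5 pmr6, against 3483.4, 4034.4 and 1662.9 in pmr5, and the groups overlapped. In pmr6 it had 3542.7, 3793.6 and 2921.9, against 931.6, 1020.6 and 608.6 in Col-0. Its change was 0.09 in the pmr5 background, with a standard error of 0.23, and 1.99 in Col-0 (interaction -1.9, limma adjusted p = 0.027). Those at places 13269, 2761 and 4180 were likewise above Col-0 in all 3 mutants, with changes of -0.27, 0.28 and 0.5 in the pmr5 background, none of them called, against 1, 1.23 and 2.12 in Col-0 (limma adjusted p of the interactions between 0.0099 and 0.027).

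Downward changes with the same arrangement were seen at places 18356 and 12112. The first had 3582.4, 3477.7 and 3816.6 in pmr5 pmr6, against 3548.7, 3652.9 and 3459.2 in pmr5, and 3708.4, 4249.9 and 4471.3 in pmr6, against 6406, 6406.9 and 6114.4 in Col-0. Its change was 0.03 (SE 0.08) in the pmr5 background and -0.61 in Col-0. The other was at 60.6 to 172.3 in pmr5 pmr6, against 47.9 to 65.6 in pmr5, and changed by 0.56 in the pmr5 background (not called), against -1.75 in Col-0.

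These interactions differed in how firmly they were called. That at place 13269 kept its call in 21 of 23 other settings. Those at places 18356, 18395, 2761 and 4180 kept theirs in 15, 14, 13 and 12 of 23, and that at 12112 in 13 of 22. All 5 of the less firm ones lost their call with no dim filter (limma adjusted p = 0.061), without pmr5 replicate 1, without pmr6 replicate 2 and without Col-0 replicate 3. Leaving out pmr5 pmr6 replicate 1 ended the call at 4 of the 5 places, all but 4180. Leaving out pmr5 pmr6 replicate 3 did so at 4 of the 5, all but 12112. Further single arrays ended it at 2761 (pmr6 replicate 1 or 3), 12112 (pmr6 replicate 3 or Col-0 replicate 2) and 4180 (pmr5 pmr6 replicate 2, pmr5 replicate 2 or pmr6 replicate 3).

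**Figure D4:**
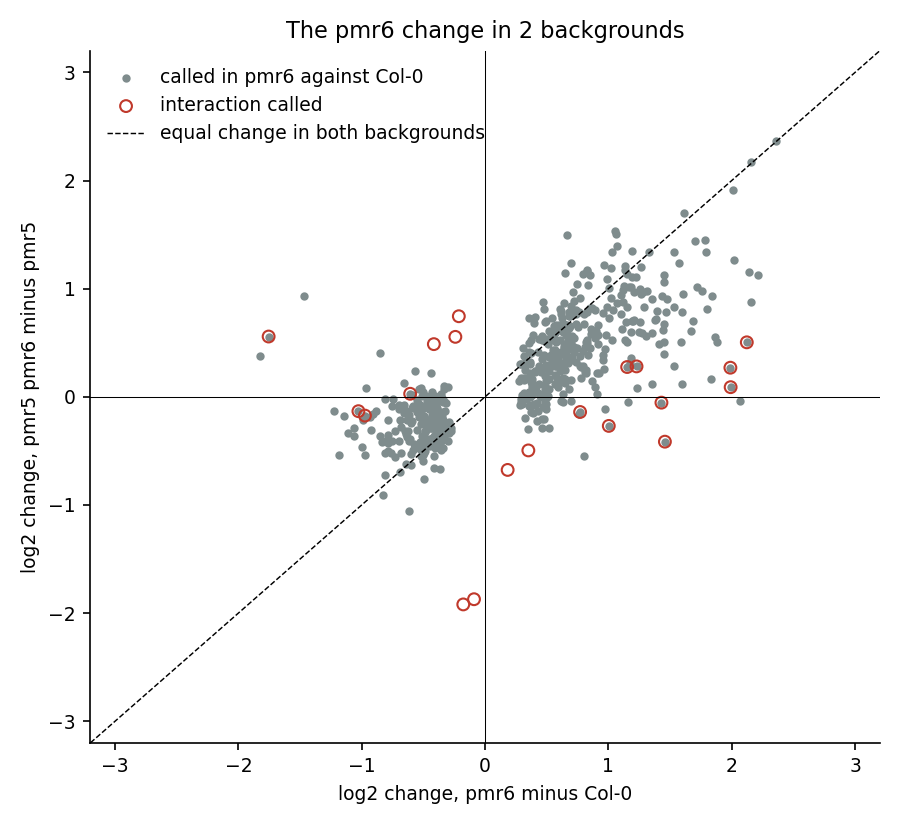
The vertical axis gives the log2 change with PMR6 loss in the pmr5 background and the horizontal axis that in Col-0, for the 579 probe sets called in pmr6 against Col-0 (grey); the 20 called interactions are circled in red. Of the 366 raised in Col-0, 326 lie above 0 on the vertical axis, mostly below the line of equal change, and the 2 lowest circles are Down1 and Down2.

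Of the 20 interactions, 7 were also called in pmr5 pmr6 against pmr5, 3 higher and 4 lower. Apart from Down2, these interactions kept their call in only 5 to 10 of 23 other settings, though none changed direction. Besides Down1 and Down2, a further decrease had 562.9, 557.5 and 501.6 in pmr5 pmr6, against 839.4, 821.9 and 986.3 in pmr5, and 772.2 to 1124.8 on the pmr6 and Col-0 arrays (change -0.68, interaction -0.86, limma adjusted p = 0.037). The double mutant was the lowest of the 4 genotypes without overlap. Its counterpart among the increases had 2695.5, 2383.1 and 2024.1 in pmr5 pmr6, against 1208.9, 1541.5 and 1446.9 in pmr5, while pmr6 and Col-0 lay between 1129.7 and 1898.6 (change 0.74, interaction 0.96, limma adjusted p = 0.039). There the double mutant alone was raised.

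By mean intensity it was the highest of the 4 in 314 of the 317 increases and the lowest in 226 of the 229 decreases. It was the highest in 33.5% and the lowest in 29% of all tested probe sets. Among those merely higher than pmr5 it was the highest in 68.2%, and among those lower than pmr5 the lowest in 55.4%, since the choice of the 546 already places it beyond pmr5. Against Col-0, pmr5 pmr6 was called higher in 300 of the 317 and lower in 204 of the 229. Against pmr6 it was called higher in 207 and lower in 175. These comparisons share the double-mutant arrays with the change that chose the 546, and among all probe sets 19.3% were called against Col-0 (9.88% higher, 9.38% lower) and 8.26% against pmr6 (4.13% in each direction). Between the single mutants, pmr6 against pmr5 gave calls for 0.44% of probe sets (0.264% higher, 0.176% lower). Among the 546, 19 of the increases were called higher in pmr6 and 1 of the decreases was called lower. The pmr5 arrays enter both this comparison and the change that chose the 546.

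For 9 probe sets the change in the double mutant ran against a called change of pmr5 over Col-0, 4 upward and 5 downward, while 149 increases and 87 decreases had a called pmr5 change in the same direction, where 8.08% of all probe sets were called in pmr5 against Col-0 (4.19% higher, 3.89% lower). The pmr5 arrays enter both values. Apart from Up8 and Down2, the other 7 had changes of 0.33 to 0.58 (the decreases) or -0.77 to -0.41 (the increases) in pmr5 over Col-0 on the log2 scale, and their double-mutant level was not called different from Col-0. One of them had 1642.2, 1674.9 and 1460.4 in pmr5 pmr6, against 1072.5, 1238.8 and 931 in pmr5, and 1721.2, 1362.1 and 1574.9 in Col-0. All pmr5 arrays were below all Col-0 arrays, and the double mutant overlapped the wild type. Its change was 0.55 (SE 0.1, limma adjusted p = 0.0037), with an interaction of 0.8 (limma adjusted p = 0.034). Another had 548, 546.8 and 501.7 in pmr5 pmr6, against 329, 421.7 and 368.9 in pmr5, with 691.7, 672.6 and 601.9 in Col-0, so that the double mutant lay between pmr5 and the wild type. In the downward direction, one had 524.5, 668.1 and 542.2 in pmr5 pmr6, against 954.3, 762.6 and 763.9 in pmr5, and 570.9, 583.2 and 478.5 in Col-0, with a change of -0.5 and an interaction of -0.85 (limma adjusted p = 0.047).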

How the data were processed

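Biotin-labelled cRNA of 12 samples was hybridized to Affymetrix ATH1 arrays, per the labels' protocols and file headers. The deposited table holds 1 linear intensity per row and array, 22810 rows. The authors' intensities share 1 scale: a mean that trims 2% of the values at each end was 500 or 500.1 on every array. No source used here names the software. Instrument records, per the file headers, gave hybridization time and fluidics module as other, non-expression values. The run is not a recorded field: it was set here from gaps between the hybridization times.

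Intensities were turned to log2(intensity + 28). The 64 rows with AFFX identifiers and the dimmest 25% by mean were left out, keeping 17059. As identifiers did not track values, those 64 rows need not be the controls. Of the table's first 64 rows 35 were tested, and 0 were called, against 3.2% of all tested probe sets. So few rows cannot show a difference from that share. Means of the 4 genotypes were estimated over 12 arrays with limma 3.58.1 in R 4.3.3 (eBayes with intensity trend, 8 residual and 12 prior degrees of freedom). Calls were made at a Benjamini-Hochberg adjusted p under 0.05. The fit was also applied to simulated data as a self-test, whose outcome is not reported here. Deviations of same-numbered pmr5 pmr6 and pmr5 arrays correlated between -0.065 and 0.084; the number is the hybridization run, so the block is printed beside the main count. The 10 largest changes per direction among called, non-overlapping probe sets were named, and the 8 interactions with the lowest adjusted p; probe sets outside this rule (called in both tests, or against the pmr5 change) were chosen after their values were seen. The members and lists were chosen with earlier results of these data known. Since the identifier check failed, gene lists were not used. Plots used Python 3.11.15 and matplotlib 3.10.9.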

Additional observations from a re-analysis of the deposited data

Results flagged for a closer look

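The change with PMR6 loss was not the same in the pmr5 and Col-0 backgrounds for 20 probe sets (interaction term, limma adjusted p under 0.05), 7 above and 13 below. The intensities of those with the lowest adjusted p are given in the report. The count was 6 without both arrays that stood apart at the dim end, pmr5 pmr6 replicate 3 and pmr5 replicate 1; their part in the count of 20 was not tested further. The probe set at place 9594 of the table was called in all 23 alternative settings, with an interaction between -2.02 and -1.54 on the log2 scale, Down2 in 22 and that at place 13269 in 21 of 23. The other 5 of the 8 with the lowest adjusted p were called in 12 to 15 settings, and Down1 in 10 of 23.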

How the results depend on the processing

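The count of 546 for pmr5 pmr6 against pmr5 was 140 without the variance trend (99 higher), 76 with a 2-fold minimum (69 higher) and 0 by an unmoderated 2-sample test, by which 1956 passed an unadjusted p of 0.05. Leaving out 1 array gave 263 to 602. The 6 arrays compared alone gave 444, of which 68.5% were higher, against 58.1% of the 546. The replicate block, which is the hybridization run, gave 612 and 26 interactions. Treating the table's first 64 rows as the controls gave 556. The other settings gave 445 to 588. The interaction count of 20 was 3 with no dim filter, 12 with the robust trend, 1 without the variance trend and 6 without both arrays that stood apart. Leaving out 1 array gave 3 to 33: 3 without pmr6 replicate 2, 4 without pmr5 replicate 1 or Col-0 replicate 3, 7 when pmr5 pmr6 replicate 1 or pmr6 replicate 3 was omitted, 8 when pmr5 pmr6 replicate 3 was, and 33 when Col-0 replicate 2 was. The causes were not tested. No named probe set changed direction in any setting. Up1 to Up4, Up7, Up9, Down1 to Down3, Down6, Down9 and Down10 kept their call in every limma setting that tested them, and Down5 in 5 of 23. Leaving out pmr6 or Col-0 arrays for the count of 546, reading the Col-0 calls under each setting, and following the interactions of probe sets called in both tests were added after seeing the data; the median of those raised in Col-0 was 0.61 without the variance trend, where fewer are called. The gene list alternatives were not run, as rows have no names. The number of arrays and the dim level limit precision.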
